A study of Homo sapiens with 12 samples.

Results

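The Notch receptors, ligands and HES/HEY targets were followed in melanoma cells exposed to a RAF inhibitor. The genes were chosen by symbol, as 3 receptors (NOTCH1, NOTCH2 and NOTCH3), 3 ligands (JAG1, JAG2 and DLL1), 3 target genes (HES1, HEY1 and HEY2) and HES6, a relative of the targets. All 10 were listed, among 23273 genes, in the expression tables of both cell lines. A further 61 genes of the pathway were taken as its wider setting.

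RNA was sequenced from COLO858 and MMACSF, established human melanoma cell lines that the study describes as BRAF-mutant. Cells of each line received either the vehicle DMSO or 0.2 μM vemurafenib, an inhibitor of mutant BRAF, and drug-treated cells were collected after 24 or 48 h. Every group had 2 replicates, which gave 12 libraries. The labels give no time of harvest for the DMSO cells, and the same DMSO pair of a line was the control for both drug times. Each line is a single cell line and stands for itself only. The lines also differed in growth medium and in seeding density, 20% confluency for COLO858 and 33% for MMACSF, so effects of line, medium and density cannot be told apart. The deposited levels were taken as FPKM (fragments scaled to transcript length and to the mapped reads of a library), although the tables are named normalized counts, and, because the scaling between the tables of the lines was not stated, only drug responses were compared across lines.

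Notch receptors are cell-surface proteins that are cut after a ligand on a neighbouring cell pulls on them. The freed intracellular part enters the nucleus, joins the DNA-binding protein RBPJ and a Mastermind co-activator, and switches on genes of the HES and HEY families, which encode transcriptional repressors. In the melanocyte lineage the pathway is known for keeping melanocyte stem cells and melanoblasts, and HES1 is a classical target in those cells.

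Promoter windows of 250 bases before the RefSeq transcript start were available for 8 members, that is, all but HEY1 and DLL1. They were searched on both strands for the letters of 7 motifs. Those for RBPJ were its core, TGGGAA, and a longer form that contains the core, CGTGGGAA. The others were the N-box CACNAG, which HES proteins bind, the E-box CACGTG, the AP-1 letters TGANTCA, the ETS letters CCGGAAGT and the CRE letters TGACGTCA. HES1 is shown because it is the member that fell in MMACSF and whose window held the RBPJ core in 2 copies, printed in capitals. The window lies just upstream of the gene, on the plus strand of GRCh37 at chr3:193853687-193853936, before the HES1 gene body at 193853937 to 193856521 (GENCODE annotation).
HES1: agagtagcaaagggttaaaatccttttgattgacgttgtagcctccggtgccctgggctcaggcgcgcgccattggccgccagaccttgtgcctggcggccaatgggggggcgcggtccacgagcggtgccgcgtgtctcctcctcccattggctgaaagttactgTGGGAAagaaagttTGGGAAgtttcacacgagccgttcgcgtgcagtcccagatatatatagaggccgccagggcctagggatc
The copies lay 84 to 79 and 70 to 65 bases before the start, on the strand of the gene. At least 2 cores were found in 2.9% of all 35116 RefSeq windows of this length, and at least 1 core in 20.8%. The HES1 window also held 3 N-boxes, a motif found in 32% of windows.

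HEY2 is shown because it was the only member window with the longer form, which 0.72% of all windows held. This window lies before the RefSeq start but inside the HEY2 gene body of the GENCODE annotation, 126068810 to 126082415. In the stretch at chr6:126070554-126070583 (GRCh37, plus strand, which is the strand of the gene) the capitals mark the 8 letters, which read as the longer form on the opposite strand.
HEY2: ccgcggccgcgTTCCCACGcctcggctgga
No RBPJ core was present in the windows of NOTCH1, NOTCH2, NOTCH3, JAG1, JAG2 or HES6. By the GENCODE annotation the HES6 window also lay inside its gene body, and the JAG2 window overlapped its gene body in part. The E-box, AP-1, ETS and CRE letters were in no member window, against 6.34%, 6.57%, 3.42% and 1.65% of all windows. NOTCH3 had 1 N-box. These matches describe letters in a short window and not binding.

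**Figure D1:**
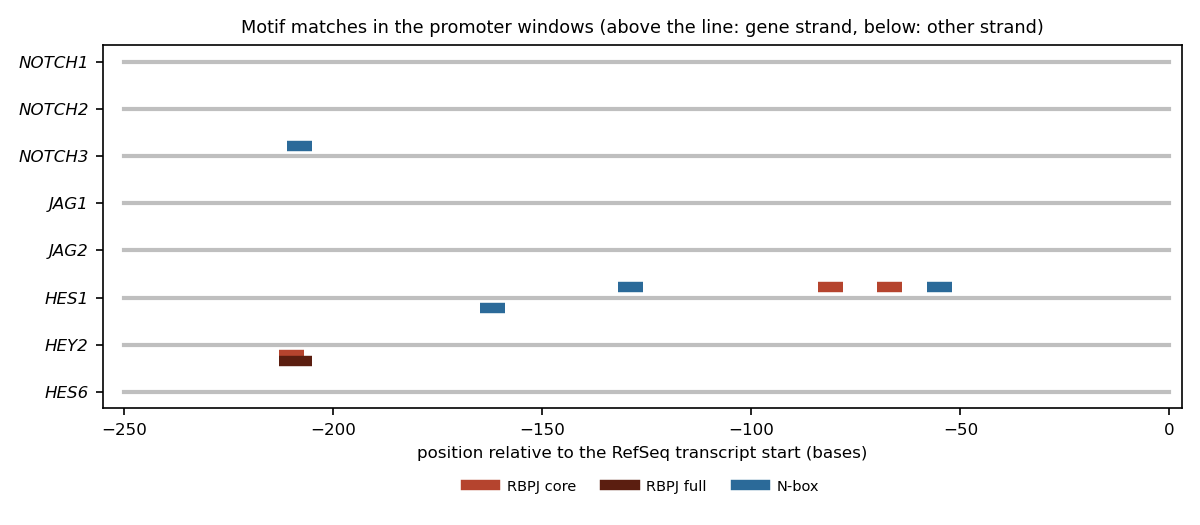
Positions of motif matches in the 250-base windows before the RefSeq start of 8 members; the horizontal axis gives bases relative to the start, blocks above a line lie on the strand of the gene and blocks below it on the other strand. Only HES1 carried 2 RBPJ cores, and the match to the longer form lay in the HEY2 window.

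The libraries carried the marks of melanocytic cells and of drug action. All 8 melanocyte lineage markers were above 1 FPKM in every MMACSF library. In COLO858 the same held for all but MLANA, at 0.299 to 0.725 FPKM, and TYR, at 0.282 to 1.21 FPKM. The lowest of these values lay in the range of the keratinocyte gene KRT14 in drug-treated COLO858 cells, 0.244 to 0.448 FPKM. The 8 markers of keratinocytes, endothelium and blood reached 0.448 FPKM at most, and the keratinocyte genes KRT1 and KRT5 and the T cell gene CD3E were listed at 0 in every library. An exact 0 in these tables can be a failed estimate, since TUBB and RPS18 were listed at 0 in all 12 libraries. Of the 3 fibroblast genes, LUM was at 5.30 to 73.3 FPKM, and DCN and COL1A2 stayed at or below 3.33 FPKM. DUSP6, an immediate target of the MAPK pathway, fell at both times in both lines. In COLO858 it was at 110 and 124 FPKM in DMSO, at 45.1 and 38.7 FPKM at 24 h, and at 60.0 and 61.0 FPKM at 48 h. In MMACSF it was at 40.4 and 40.9 FPKM in DMSO, at 11.7 and 12.7 FPKM at 24 h, and at 10.8 and 11.1 FPKM at 48 h. The small RNA gene MIR4461 took 14.1% to 19.0% of summed FPKM in the replicate 1 libraries and 25.8% to 43.4% in the replicate 2 libraries. Within each line and replicate number the share was also higher in both drug libraries than in the DMSO library, and its part in the results was not tested. Size factors, the median ratio over genes above 1 FPKM in every library of a line, stayed between 0.937 and 1.07.

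Among the 10 genes, HES1 had the highest level in DMSO-treated cells of both lines. In COLO858 cells the order by mean FPKM was HES1, HES6, NOTCH1, HEY1, NOTCH2, JAG1, JAG2, NOTCH3 and HEY2, with DLL1 listed at 0 in all 6 libraries. Of the neighbours in that order, the replicates of NOTCH1 and HEY1, of JAG2 and NOTCH3, and of NOTCH3 and HEY2 overlapped. In MMACSF cells the order was HES1, HEY1, NOTCH2, HES6, JAG1, NOTCH1, HEY2, DLL1, JAG2 and NOTCH3, and no neighbours overlapped. NOTCH3 in MMACSF was listed at 0 in 4 libraries and reached 0.0292 FPKM at most. After 48 h in drug, HEY1 had dropped below JAG1 in both lines, and in MMACSF NOTCH2 had taken the first place from HES1.

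**Figure D2:**
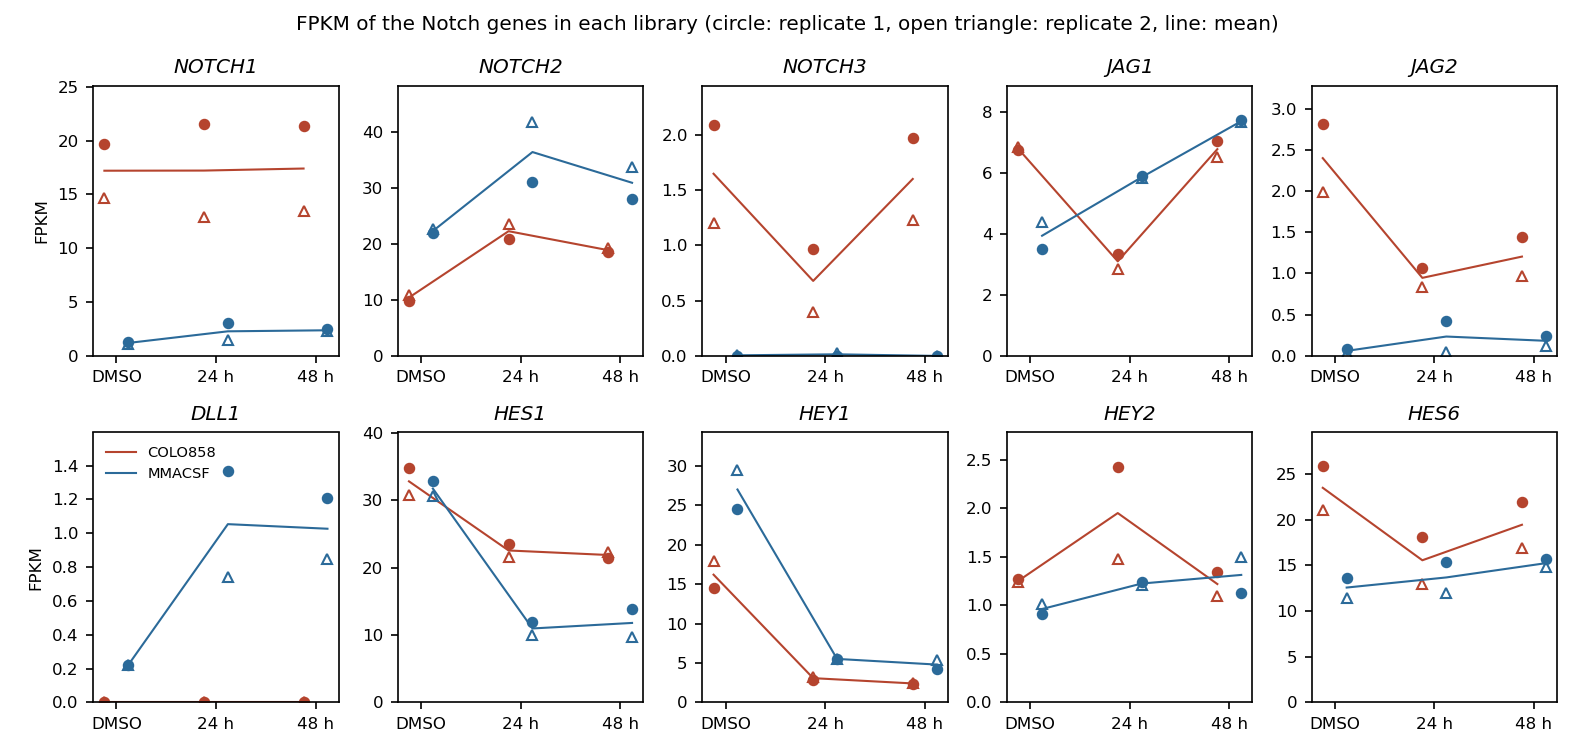
FPKM of each member (vertical axes, different scales) in DMSO and after 24 and 48 h in vemurafenib; circles are replicate 1, open triangles replicate 2 and lines join group means, with COLO858 in red and MMACSF in blue, whose levels are not on a stated common scale. HEY1 fell in both lines, HES1 fell to 11.9 FPKM or less in MMACSF at 24 h, and JAG1 moved in opposite directions at 24 h.

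HEY1, a repressor induced by Notch in many cell types, had the largest fold changes of the members tested, on the log2 scale of the test, at both times in each line. In COLO858 cells HEY1 was at 14.5 and 17.9 FPKM in DMSO, at 2.88 and 3.28 FPKM at 24 h, and at 2.31 and 2.51 FPKM at 48 h. In MMACSF cells it was at 24.6 and 29.5 FPKM in DMSO, at 5.54 and 5.50 FPKM at 24 h, and at 4.23 and 5.37 FPKM at 48 h. All drug-treated libraries lay far below both DMSO libraries of their line. The mean FPKM at 48 h was 0.149 of the DMSO mean in COLO858 and 0.178 of it in MMACSF. In bulk RNA of this kind, fewer cells that express a gene and less RNA per cell cannot be told apart.

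The test was limma on log2(FPKM + 1), two-sided, with Benjamini-Hochberg adjustment over all genes tested and a threshold of 0.01, and fold changes below are on that log2 scale with their standard error (SE). It measures only the spread between 2 plates of a group, which may be technical. With 2 libraries in each group, groups can fail to overlap without any drug effect. How many of all genes did so was not counted, so separation of libraries is given as a description only. In COLO858 HEY1 fell by 2.07 (SE 0.16, adjusted p = 0.00177) at 24 h and by 2.33 (SE 0.16, adjusted p = 0.0013) at 48 h. In MMACSF it fell by 2.10 (SE 0.17, adjusted p = 0.00236) at 24 h and by 2.27 (SE 0.17, adjusted p = 0.0014) at 48 h. The difference between the responses of the lines, COLO858 minus MMACSF, was 0.03 at 24 h (95% interval -0.48 to 0.53) and -0.06 at 48 h (95% interval -0.56 to 0.45). Leaving out any 1 of the DMSO or drug libraries of a comparison ended the HEY1 call, with limma adjusted p between 0.0101 and 0.0243 and fold changes between -2.47 and -1.93. The 24 h call in MMACSF was also lost without either 48 h library (adjusted p = 0.0116 and 0.0118). Such fits leave 1 group with a single library, which is assumed to vary like the other groups, and have less power for all genes. At 24 h in COLO858, for example, calls over all genes fell from 1247 to between 114 and 154 when a DMSO or 24 h library was left out, so a call lost in this way says little of the gene itself.

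HES1, a Notch target that represses its own transcription and that of proneural genes, fell in MMACSF. There it was at 32.8 and 30.6 FPKM in DMSO, at 11.9 and 10.0 FPKM at 24 h, and at 13.9 and 9.68 FPKM at 48 h. Every drug-treated MMACSF library lay below 14 FPKM and both DMSO libraries above 30 FPKM. HES1 fell by 1.45 (SE 0.20, adjusted p = 0.00923, limma) at 24 h and by 1.37 (SE 0.20, adjusted p = 0.00855) at 48 h. In COLO858 cells the levels were 34.8 and 30.8 FPKM in DMSO, 23.5 and 21.6 FPKM at 24 h, and 21.4 and 22.4 FPKM at 48 h. The COLO858 groups did not overlap either, but the fold changes of -0.52 (limma adjusted p = 0.0449) and -0.56 (adjusted p = 0.037) did not pass the threshold. The difference between lines was 0.93 at 24 h (95% interval 0.39 to 1.47, adjusted p = 0.0459) and 0.81 at 48 h (95% interval 0.27 to 1.35, adjusted p = 0.0522) and neither passed the threshold. Both MMACSF calls lay close to the threshold and were lost when any single MMACSF library was left out (adjusted p between 0.0185 and 0.0641, fold changes between -1.62 and -1.13).

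HEY2, the relative of HEY1 with roles in heart and vessels, stayed low. In COLO858 its values were 1.27 and 1.24 FPKM in DMSO, 2.43 and 1.47 FPKM at 24 h, and 1.34 and 1.10 FPKM at 48 h. In MMACSF they were 0.914 and 1.01 FPKM in DMSO, 1.24 and 1.21 FPKM at 24 h, and 1.13 and 1.50 FPKM at 48 h. Both 24 h libraries were above both DMSO libraries in each line, by amounts that did not pass the test (log2 fold change 0.37, limma adjusted p = 0.223 in COLO858, and 0.18, adjusted p = 0.463 in MMACSF).

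HES6, which is known to antagonise HES1 and to promote neurogenesis, had no call in either line with replicates taken as unpaired. COLO858 cells had 25.9 and 21.1 FPKM in DMSO, 18.1 and 13.0 FPKM at 24 h, and 22.0 and 16.9 FPKM at 48 h, with replicate 1 above replicate 2 each time. MMACSF cells had 13.7 and 11.5 FPKM in DMSO, 15.4 and 12.01 FPKM at 24 h, and 15.7 and 14.8 FPKM at 48 h. The fold change at 24 h in COLO858 was -0.58 (SE 0.23, limma adjusted p = 0.128). In MMACSF both 48 h libraries lay above both DMSO libraries, with a fold change of 0.26 (SE 0.17, limma adjusted p = 0.304).

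Of the receptors, NOTCH2 passed the test in COLO858 at 24 h. COLO858 cells had 9.91 and 11.0 FPKM of NOTCH2 in DMSO, 21.0 and 23.7 FPKM at 24 h, and 18.5 and 19.3 FPKM at 48 h. Mean FPKM at 24 h was thus 2.14 times the DMSO mean. NOTCH2 rose by 1.03 (SE 0.14, adjusted p = 0.00722, limma) at 24 h, and the 48 h value of 0.80 (SE 0.14, adjusted p = 0.0146) missed the threshold although the groups did not overlap. The 24 h call was lost without any single COLO858 library, with adjusted p between 0.0239 and 0.0581 and fold changes between 0.94 and 1.11. MMACSF cells had 22.1 and 22.7 FPKM in DMSO, 31.1 and 41.9 FPKM at 24 h, and 28.1 and 33.9 FPKM at 48 h. Every drug-treated MMACSF library was thus above the DMSO pair, but the fold changes of 0.67 (limma adjusted p = 0.0572) and 0.45 (adjusted p = 0.134) did not pass. The difference between lines was 0.36 at 24 h (95% interval -0.15 to 0.87) and 0.35 at 48 h (95% interval -0.16 to 0.87). NOTCH2, on the minus strand of chromosome 1 (GRCh37, 120454176 to 120643366), has a partial and nearly identical copy, NOTCH2NL, so reads may be split between them. NOTCH2NL was at 4.18 and 6.12 FPKM in DMSO-treated COLO858 cells and at 6.85 and 8.86 FPKM at 24 h.

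NOTCH1 had a fold change of -0.03 at 24 h in COLO858 (95% interval -0.88 to 0.82), where the replicates lay further apart than the group means. Its levels there were 19.7 and 14.7 FPKM in DMSO, 21.5 and 12.9 FPKM at 24 h, and 21.4 and 13.4 FPKM at 48 h. In MMACSF NOTCH1 was at 1.31 and 1.10 FPKM in DMSO, at 3.08 and 1.49 FPKM at 24 h, and at 2.48 and 2.29 FPKM at 48 h. The drug-treated MMACSF libraries were all above the DMSO pair, and the fold changes of 0.53 (SE 0.26, limma adjusted p = 0.206) and 0.62 (SE 0.26, adjusted p = 0.144) did not pass. NOTCH3 in COLO858 was at 2.10 and 1.20 FPKM in DMSO, at 0.964 and 0.394 FPKM at 24 h, and at 1.97 and 1.23 FPKM at 48 h. Its 24 h libraries lay below both DMSO libraries (fold change -0.66, SE 0.28, limma adjusted p = 0.142).

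The make-up of the receptor mRNA is given as a share within each library. In COLO858 NOTCH1 took 62.2% and 54.6% of the summed FPKM of the 3 receptors in DMSO, 49.5% and 34.9% at 24 h, and 51.0% and 39.5% at 48 h. NOTCH2 took 31.2% and 40.9% in DMSO, 48.2% and 64.1% at 24 h, and 44.2% and 56.9% at 48 h. The 3 receptors summed to 31.7 and 26.9 FPKM in DMSO and to 43.5 and 37.0 FPKM at 24 h. In MMACSF NOTCH2 took between 91.0% and 96.5% in every library. NOTCH4, the remaining human receptor, was listed at 0 in all 12 libraries, which in these tables can also be a failed estimate.

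JAG1, the ligand with the highest level of the 3 in both lines, was the member whose response differed between the lines by the test at 24 h. The gene lies on the minus strand of chromosome 20 (GRCh37, 10618332 to 10654647). COLO858 cells had 6.75 and 6.86 FPKM of JAG1 in DMSO, 3.34 and 2.87 FPKM at 24 h, and 7.06 and 6.52 FPKM at 48 h. Both 24 h libraries thus lay below the DMSO pair, and the 48 h libraries lay just above and just below it. MMACSF cells had 3.51 and 4.38 FPKM in DMSO, 5.89 and 5.84 FPKM at 24 h, and 7.73 and 7.68 FPKM at 48 h, so the 3 groups were apart and ordered by time.

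The fold change of JAG1 at 24 h was -0.93 in COLO858 (SE 0.14, limma adjusted p = 0.0101, just short of the threshold) and 0.48 in MMACSF (SE 0.15, adjusted p = 0.0788). The difference between them, -1.41 (SE 0.17, 95% interval -1.81 to -1.01), passed the limma test of the interaction with an adjusted p of 0.00226. At 48 h the fold changes were -0.00 in COLO858 (SE 0.14) and 0.82 in MMACSF (SE 0.15, limma adjusted p = 0.0159), and the difference of -0.83 (SE 0.17) had an adjusted p of 0.0146. Leaving out a COLO858 DMSO library, replicate 2 of COLO858 at 24 h, replicate 1 of MMACSF in DMSO or a 24 h library of MMACSF raised the adjusted p at 24 h to at most 0.0121 and ended the call. The size of the difference stayed between -1.54 and -1.28 in all 12 such fits. The proliferation marker MKI67 was at 15.9 and 19.8 FPKM in DMSO-treated COLO858 cells, at 2.47 and 2.91 FPKM at 24 h, and at 10.9 and 12.5 FPKM at 48 h. In MMACSF MKI67 was at 10.0 and 11.0 FPKM, at 1.04 and 1.37 FPKM, and at 0.0430 and 0.0852 FPKM, and its part in the JAG1 values was not tested.

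**Figure D3:**
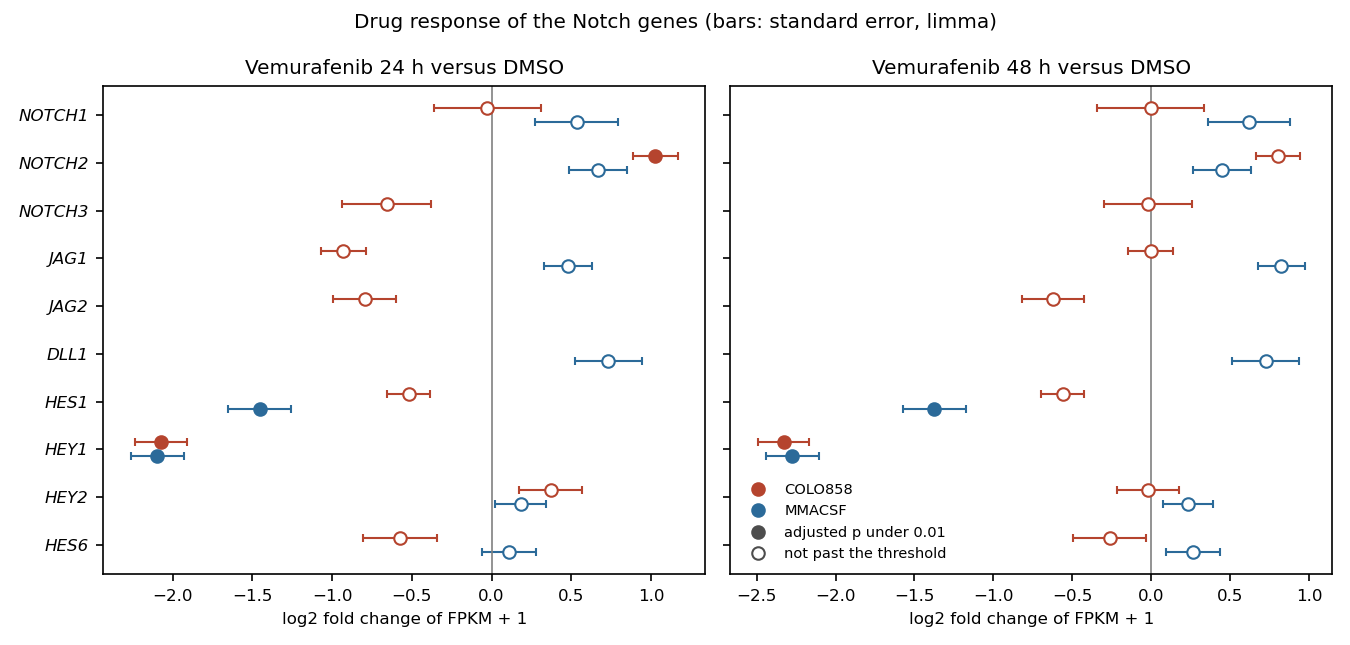
Log2 fold change of FPKM + 1 against DMSO (horizontal axis) for each member tested, at 24 h on the left and 48 h on the right, with COLO858 in red, MMACSF in blue, bars for the standard error and filled points for an adjusted p under 0.01. HEY1 was near -2 in both lines at both times, and the JAG1 points of the lines lay on opposite sides of 0 at 24 h.

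JAG2 and DLL1, the other ligands, were each expressed above 1 FPKM in only 1 line. JAG2 in COLO858 was at 2.81 and 1.99 FPKM in DMSO, at 1.06 and 0.832 FPKM at 24 h, and at 1.44 and 0.969 FPKM at 48 h. Every drug-treated library was below the DMSO pair, with fold changes of -0.80 (SE 0.20, limma adjusted p = 0.0388) and -0.62 (SE 0.20, adjusted p = 0.0752). JAG2 in MMACSF stayed at or below 0.422 FPKM. DLL1 in MMACSF was at 0.222 and 0.221 FPKM in DMSO, at 1.37 and 0.740 FPKM at 24 h, and at 1.21 and 0.845 FPKM at 48 h. All drug-treated MMACSF libraries were above the DMSO pair, and the fold changes of 0.73 (SE 0.21, limma adjusted p = 0.0659) and 0.72 (SE 0.21, adjusted p = 0.0607) did not pass. At these low levels the added 1 FPKM shrinks the fold change.

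Counted over the members, 2 of the 9 tested in COLO858 passed at 24 h, NOTCH2 upwards and HEY1 downwards. Of all 12696 genes tested there, 9.82% passed, 4.11% higher and 5.71% lower. At 48 h 1 of 9 passed, HEY1, against 9.47% of all genes, 4.74% higher and 4.73% lower. In MMACSF 2 of 8 members passed at 24 h, HES1 and HEY1, both lower, against 5.83% of all 12599 genes, 2.22% higher and 3.60% lower. The same 2 members passed at 48 h, against 8.83% of all genes, 3.42% higher and 5.41% lower. DLL1 was not tested in COLO858, nor NOTCH3 and JAG2 in MMACSF, because no group mean reached 1 FPKM. With so few members these shares cannot be set apart from those of all genes. The members tested in COLO858 had a median fold change of -0.58 at 24 h, where that of all genes was 0.06, and of -0.02 at 48 h, where it was -0.01. In MMACSF these medians were 0.33 beside 0.07 at 24 h and 0.36 beside 0.06 at 48 h.

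Between 24 and 48 h of drug, 0 of 9 members passed in COLO858 (1 at an unadjusted limma p under 0.05) and 0 of 8 in MMACSF (0 at an unadjusted p under 0.05). Of all genes, 1.38% passed in COLO858 and 0.222% in MMACSF. The member with the unadjusted p under 0.05 was JAG1 in COLO858, with a fold change of 0.93 from 24 to 48 h (SE 0.14, limma adjusted p = 0.0275). For the difference between lines, 1 of 10 members passed at 24 h, JAG1 (5 at an unadjusted limma p under 0.05), against 3.71% of all 13595 genes. At 48 h 0 of 10 passed (4 at an unadjusted p under 0.05), against 7.48% of all genes. The 10 include DLL1, NOTCH3 and JAG2, which averaged under 1 FPKM in every group of 1 line. They entered this test through the other line, so their values do not compare the lines, and they may be among the 5 and the 4.

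The wider pathway list held 61 genes. In COLO858 3 of 47 genes tested passed at 24 h, 2 higher and 1 lower, and 3 passed at 48 h, 2 higher and 1 lower, where 9.82% and 9.47% of all genes passed. In MMACSF 0 of 44 passed at 24 h (14 at an unadjusted limma p under 0.05) and 1, lower, at 48 h, where 5.83% and 8.83% of all genes passed. These counts are too small to set the list apart from all genes. None of the 9 genes for protein cleavage, which include the γ-secretase subunits and the ADAM proteases, passed against DMSO in either line, nor did RBPJ or the Mastermind genes. The list had a median fold change of 0.09 at both times in COLO858, beside 0.06 and -0.01 over all genes, and of 0.20 and 0.14 in MMACSF, beside 0.07 and 0.06.

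On the log2(FPKM + 1) scale the largest called change was that of KAT2B, an acetyltransferase that joins the Notch transcription complex. It was at 8.57 and 10.3 FPKM in DMSO-treated COLO858 cells, at 60.8 and 72.9 FPKM at 24 h, and at 45.1 and 52.8 FPKM at 48 h. In MMACSF it was at 29.1 and 33.9 FPKM, at 40.8 and 46.4 FPKM, and at 23.5 and 27.6 FPKM. KAT2B rose in COLO858 by 2.70 (SE 0.17, adjusted p = 0.00111, limma) at 24 h and by 2.26 (adjusted p = 0.00168) at 48 h. The difference between lines was 2.24 at 24 h (adjusted p = 0.000915) and 2.55 at 48 h (adjusted p = 0.000236), and it passed without each of the 12 libraries in turn. The calls of KAT2B against DMSO were lost without either DMSO library or either drug library of the time compared (limma adjusted p up to 0.0161).

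DNER, a transmembrane protein described as a non-canonical Notch ligand, was at 21.7 and 21.1 FPKM in DMSO-treated COLO858 cells, at 17.0 and 19.9 FPKM at 24 h, and at 5.96 and 5.41 FPKM at 48 h. Both 24 h libraries lay below the DMSO pair without passing the test (log2 fold change -0.21), and at 48 h DNER fell, by 1.74 against DMSO (SE 0.15, limma adjusted p = 0.00204) and by 1.54 against 24 h (adjusted p = 0.00833). In MMACSF DNER stayed at or below 0.599 FPKM, so its response there could not be compared. The call of DNER against DMSO was lost without a DMSO or 48 h library (limma adjusted p up to 0.0214), and that against 24 h without any single library (adjusted p up to 0.072). NEURL1B, a ubiquitin ligase for the endocytosis of ligands, was at 1.54 and 1.53 FPKM in DMSO-treated COLO858 cells, at 0.274 and 0.172 FPKM at 24 h, and at 1.50 and 1.06 FPKM at 48 h. In MMACSF NEURL1B was at 1.44 and 1.08 FPKM, at 0.125 and 0.111 FPKM, and at 0 and 0.0192 FPKM. NEURL1B fell by 1.05 in COLO858 at 24 h (limma adjusted p = 0.00916) and by 1.16 in MMACSF at 48 h (adjusted p = 0.00806). Both MMACSF libraries at 24 h already lay far below the DMSO pair, without a call at that time.

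DTX4, an E3 ligase of the Deltex family that acts on the receptor, rose in COLO858 at 24 h from 0.790 and 0.775 FPKM to 3.40 and 2.98 FPKM (log2 fold change 1.23, limma adjusted p = 0.00715). In MMACSF DTX4 was at 2.08 and 1.92 FPKM in DMSO. It was at 2.82 and 3.45 FPKM there at 24 h and at 3.87 and 3.95 FPKM at 48 h, without a call. TLE1, a Groucho-type corepressor that HES proteins recruit, rose in COLO858 at 48 h from 13.4 and 12.1 FPKM to 30.4 and 27.5 FPKM (log2 fold change 1.12, limma adjusted p = 0.00924). In MMACSF TLE1 was at 23.7 and 19.3 FPKM in DMSO. It was at 35.7 and 27.3 FPKM there at 24 h and at 28.5 and 23.5 FPKM at 48 h, without a call. Neither DTX4 nor TLE1 had a called difference between lines. The calls of DTX4, TLE1 and NEURL1B against DMSO were lost in limma fits without any single library of the line, with adjusted p up to 0.0618. The only gene among the 7 other targets that could be tested in COLO858 was HES4, a relative of HES1 named here after its values were seen. It was at 6.38 and 2.43 FPKM in DMSO, at 0.743 and 0.282 FPKM at 24 h, and at 6.59 and 2.42 FPKM at 48 h, with no call at either time. HES5, HEYL and NOTCH4 were listed at 0 in every library, which again can be a failed estimate.

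**Figure D4:**
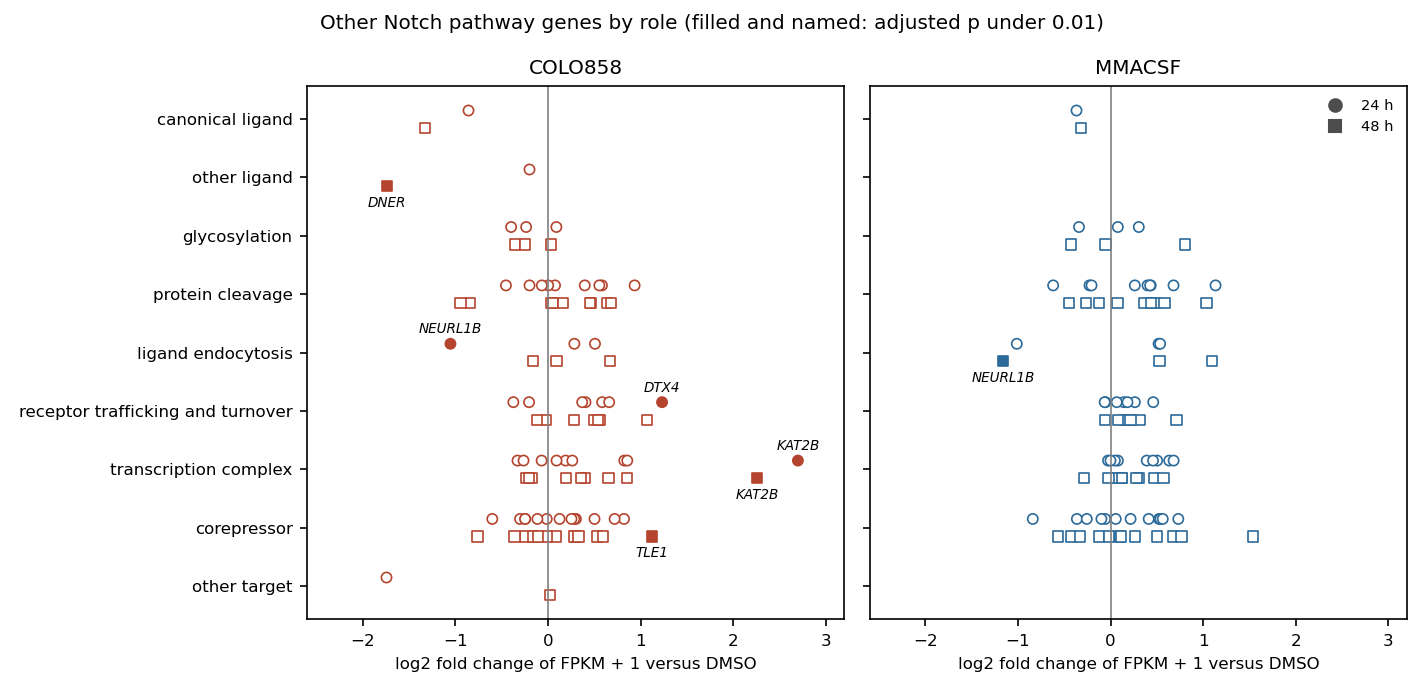
Log2 fold change of FPKM + 1 against DMSO (horizontal axis) for the other Notch pathway genes tested, by role, with circles for 24 h and squares for 48 h and filled, named points for an adjusted p under 0.01. Most genes lay within 1 log2 unit of 0, and KAT2B stood at 2.70 and 2.26 in COLO858.

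The genes whose levels followed the called members most closely were sought over the 12 libraries, as the Pearson correlation of log2(FPKM + 1) centred within each line, among 11699 genes tested in both lines. For HEY1 they were LRP8, a reelin receptor (r = 0.998), PRPS1, an enzyme of nucleotide synthesis (r = 0.992), and EFTUD2, a spliceosome component (r = 0.992). For HES1 they were MAFF, a small MAF transcription factor (r = 0.983), EIF4G1, a translation initiation factor (r = 0.977), and AKR1A1, an aldehyde reductase (r = 0.977). For NOTCH2 they were EP300, an acetyltransferase of the Notch transcription complex (r = 0.985), MAVS, an adaptor of antiviral signalling (r = 0.980), and USP22, a deubiquitinase (r = 0.980). Values of this size were common, since 566 genes reached an r of 0.9 with HEY1, 150 with HES1 and 530 with NOTCH2. The points share libraries and fall into drug-treated and DMSO-treated samples, so these values describe a like pattern only.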

How the data were processed

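The authors sequenced single 50-base reads from stranded polyA libraries, mapped them to hg19 with TopHat and made expression values with Cuffdiff. The deposited tables, named normalized counts, were taken as FPKM per gene and library from the methods and the values, which are not whole numbers. Versions, the gene annotation, the strand setting and the scaling of libraries are not given in the sources used here, and read depth is unknown. No columns of values were left unassigned (0). Members and lists were chosen with earlier results of these data known.

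Here, log2(FPKM + 1) was fitted per line (6 libraries, 3 groups) and, for the difference between lines, over all 12 libraries, with limma 3.58.1 (R 4.3.3) using a trend of variance on level. A gene entered when any of its groups averaged 1 FPKM or more, and adjusted p under 0.01 was called, the cutoff of the study. The fit was tested on simulated data. Replicates were taken as unpaired. All members are named, pathway genes when called (at most 6 for each line), the 3 genes most like each called member, and DUSP6 and MKI67. Alternatives were a pseudocount of 0.1, no minimum or one of 10 FPKM, rescaling, no trend, a replicate block and leaving out each library. Promoter windows came from RefSeq, and 7 of the 8 matched GRCh37 once, by sequence.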

Additional observations from a re-analysis of the deposited data

Results flagged for a closer look

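The limma interaction test over 12 libraries was passed by 1 member and 4 other pathway genes, each value being the log2 fold change in COLO858 minus that in MMACSF. Of the 10 members tested, 1 passed at 24 h and 0 at 48 h. Of the 48 pathway genes tested, 1 passed at 24 h and 4 at 48 h. Among all 13595 genes 3.71% passed at 24 h and 7.48% at 48 h, and these counts are too small to be set apart from those shares. JAG1 differed at 24 h by -1.41 (adjusted p = 0.00226), with both COLO858 drug libraries below and both MMACSF drug libraries above their DMSO pairs. KAT2B differed by 2.24 at 24 h and by 2.55 at 48 h. At 48 h NEURL1B differed by 0.999. The values of DNER (-1.85) and of TLE4, a corepressor (-1.004), at 48 h do not compare the lines, since both genes were below 1 FPKM in all MMACSF libraries and entered the test through COLO858. The NEURL1B difference passed in 1 of the 12 limma fits that left out a library, the one without replicate 2 of COLO858 at 48 h, and those of KAT2B in all 12.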

How the results depend on the processing

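HEY1 passed at both times in both lines under all 6 settings other than leaving out a library. HES1 in MMACSF missed the threshold with no minimum level (adjusted p = 0.0142 at 24 h and 0.0131 at 48 h, limma) and with rescaled libraries (0.0114 and 0.0111), so that calls of members against DMSO there, counted over both times, went from 4 to 2 under each and left HEY1. HES1 at 24 h also missed it without a trend (0.0103). NOTCH2 in COLO858 missed it at 24 h with no minimum level (adjusted p = 0.0102) and passed at 48 h with rescaling (0.00811), and JAG1 in COLO858 passed at 24 h with a pseudocount of 0.1 (0.00844) and without a trend (0.00882). JAG1 and the other genes under 10 FPKM were not tested with a minimum of 10 FPKM, which left 0 member calls and 3 pathway calls with a line difference, and 0 pathway calls in MMACSF. Pathway calls in MMACSF, 1 in the report, were 0 with a pseudocount of 0.1, 4 with no minimum and 2 without a trend. From 24 to 48 h in COLO858 the pathway call was lost with no minimum (0). Near-zero values changed sign. JAG1 in COLO858 at 48 h was 0.0123 with rescaling and between -0.0536 and 0.0464 without single libraries. The HEY1 line difference was -0.0896 at 24 h with a pseudocount of 0.1, 0.00288 at 48 h with rescaling, and without single libraries between -0.116 and 0.169 at 24 h and between -0.199 and 0.0861 at 48 h. Without single libraries, calls of members over both times numbered 0 to 1 against DMSO in COLO858 and 0 to 1 in MMACSF, and 0 to 1 with a line difference. Pathway calls numbered 0 to 2 and 0 to 0 against DMSO, 0 to 0 from 24 to 48 h in COLO858 and 3 to 4 with a line difference. The cause of these changes was not tested.

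With the replicate number as a block, calls of members over both times numbered 11 against DMSO in COLO858 (3 without it) and 5 in MMACSF (4), 1 from 24 to 48 h in COLO858 and 8 with a line difference. Among these 8 were JAG2 and NOTCH3 at 24 h, which do not compare the lines. Both averaged under 1 FPKM in every MMACSF group and entered the test through COLO858. Pathway calls numbered 44, 20, 7 and 22, in the order of the member counts. In each comparison 9 members and 47 pathway genes were tested in COLO858 and 8 and 44 in MMACSF. For the line difference 10 members and 48 pathway genes were tested. The block raised calls over all genes as well. At 24 h they went from 1247 to 5719 of 12696 genes in COLO858 and from 734 to 3284 of 12599 in MMACSF. For the line difference they went from 505 to 2396 of 13595. At 48 h the block gave 5549, 3790 and 3434 calls over all genes, in the same order. From 24 to 48 h in COLO858 calls over all genes went from 175 to 2280 of 12696. The member and pathway counts were not tested against these. Under the replicate block the limma test passed HES1 in COLO858 (adjusted p = 0.00504 at 24 h and 0.00412 at 48 h) and its line difference (0.00492 and 0.00601), and HES4 in COLO858 at 24 h. Same-numbered libraries deviated together with r between 0.196 and 0.211 in COLO858 and between 0.0628 and 0.113 in MMACSF, and the labels give the numbers no shared batch, so the replicate block was not used in the report. Depth is unknown, which leaves the precision of low values such as DLL1, NOTCH3 and JAG2 open.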
